A study of Mus musculus with 8 samples.

Results

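RNA of 9 hematopoietic cytokine receptors was followed in cluster cells and endothelial cells of the mid-gestation mouse aorta, to see which cytokine inputs other than Kit the cluster cells carry at the RNA level. The genes were Flt3, Csf2rb, Csf2rb2, Csf2ra, Csf3r, Il3ra, Il6st, Il7r and Epor, taken by name from the 24015 genes of the count table. All 9 were among the 13908 genes with enough counts to be tested. The AGM (aorta-gonad-mesonephros region) with the vitelline and umbilical arteries came from E11.5 embryos on a C57BL/6 background, either wild type or Sl/Sl, homozygous for the Steel deletion that takes in the Kit ligand gene Kitl. From VE-Cadherin+ Ter119- cells, c-Kit+ cells were taken as clusters, and cells without c-Kit, CD41 and CD45 as endothelium. This gave 4 groups of 2 libraries, with 100 sorted cells in each library. Cells came from pools of embryos of 1 genotype. In Sl/Sl embryos the deletion is present in every cell, so the niche and the sorted cells lack Kitl alike. The endothelial gate discarded CD45+, CD41+ and c-Kit+ cells, so low blood receptor RNA in endothelium is in part set by the sort.

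Library totals ran from 8933236 to 13428214 counts on genes. Kitl counts were 1250 and 923 in endothelium of wild type embryos, 110 and 0 in their clusters, and between 1 and 6 in the 4 Sl/Sl libraries, which matches the genotype labels. The pan-blood gene Ptprc, which encodes CD45, had 1294 to 3908 counts in clusters and 6 to 16 in endothelium. Summed over 22 endothelial markers, CPM (counts scaled to a common library total) ranged from 10845 to 11832 in endothelium and from 627 to 4430 in clusters, the top value being Sl/Sl clusters replicate 1. Clusters also held markers of maturing blood cells, 753 to 1270 CPM over 18 macrophage genes and 694 to 1202 CPM over 11 granulocyte genes, against 43.6 to 113 and 13.4 to 41.8 CPM in endothelium. In libraries of pooled cells, fewer cells with a receptor and less receptor RNA per cell cannot be told apart.

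Cytokine receptors of blood cells fall into a few families. Flt3, like Kit, is a receptor tyrosine kinase. The others lack a kinase of their own and signal through JAK kinases and STAT factors. In most of them a cytokine-specific alpha chain binds the ligand and a shared chain carries the signal: Csf2rb serves IL-3, GM-CSF and IL-5, Il6st (gp130) serves the IL-6 family, and Il2rg is the common gamma chain that pairs with Il7r. Csf3r (G-CSF) and Epor (erythropoietin) work as homodimers. Flt3 and Il7r mark early lymphoid-primed progenitors, Csf3r the granulocyte lineage and Epor red cell progenitors.

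The receptors split into those carried almost only by clusters and those present in both cell types. Over both genotypes, 5 of the 9 genes were higher in clusters and 0 were lower by edgeR's quasi-likelihood test at a Benjamini-Hochberg adjusted p under 0.1 (Flt3, Il7r, Csf2rb, Csf3r and Csf2rb2). In the whole table the test called 16.6% of 13908 genes, 8.12% higher and 8.48% lower in clusters. The median log2 fold change was 5.76 over the 9 receptors and 0.067 over all genes tested. The 9 receptors were chosen with earlier results of these data known, so this comparison with all genes is no test of the group. Flt3, Csf2rb, Csf2rb2 and Il7r had at most 5 counts in any endothelium library, and so passed the count filter through clusters alone. The same holds for Csf3r, which exceeded 1 count in a single endothelium library (38, wild type replicate 1). All 5 receptors called higher could therefore hardly come out lower. For 4 receptors (Flt3, Csf2rb, Csf3r and Il7r) every cluster library lay above every endothelium library, as did 9.57% of genes, and for 0 receptors every cluster library lay below, as did 10.1% of genes. Csf2ra, Il6st, Il3ra and Epor did not pass the test.

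**Figure D1:**
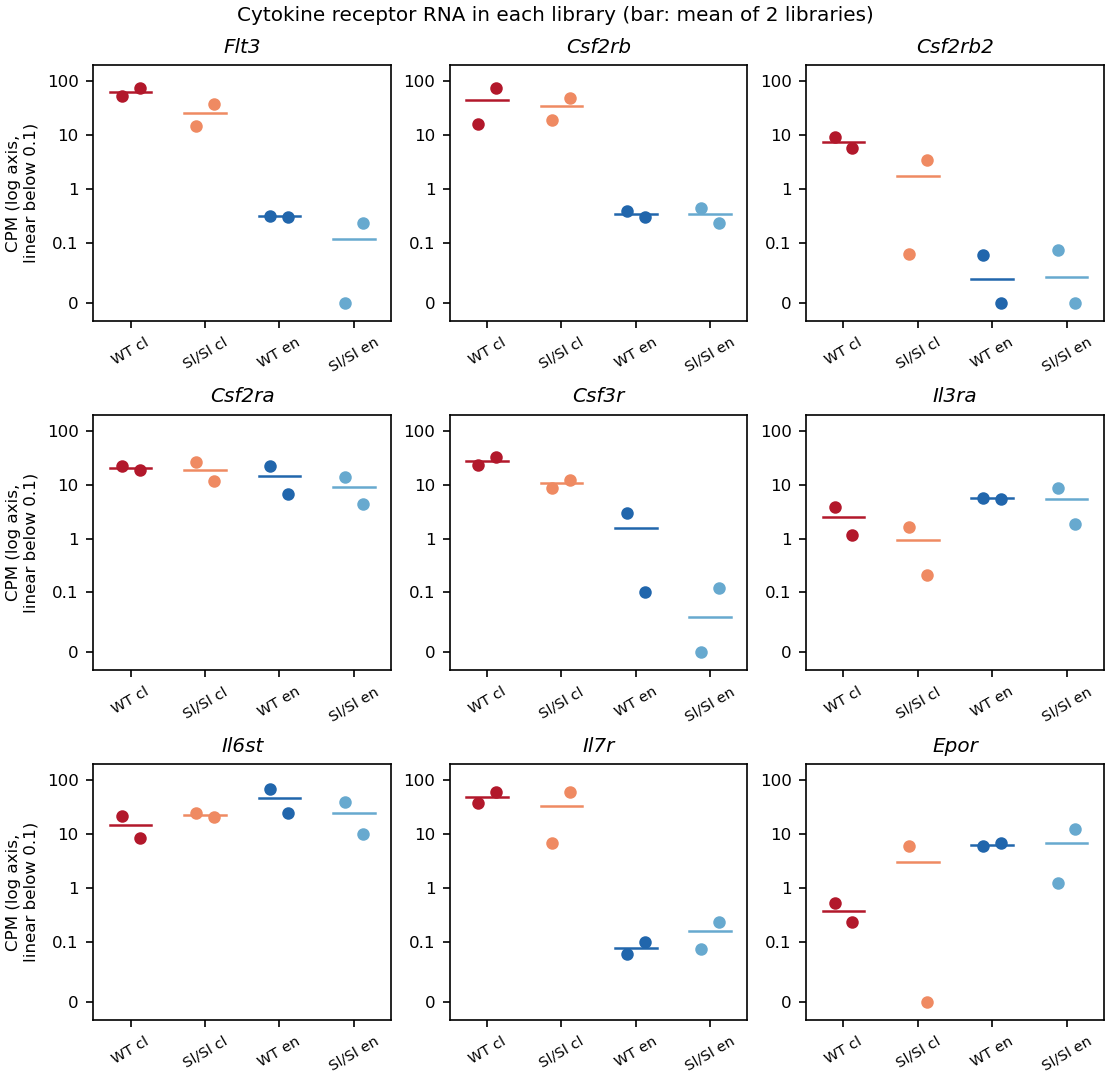
CPM (vertical axes, logarithmic above 0.1 CPM and linear below) of the 9 receptors in each library, with 2 points per group and a bar at their mean, for wild type (WT) and Sl/Sl clusters (cl) and endothelium (en). Flt3, Csf2rb, Csf3r and Il7r lie higher in all 4 cluster libraries than in all 4 endothelium libraries, whereas Csf2ra and Il6st overlap between the cell types.

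The receptors' shares of the summed level describe the same data and, since the 5 genes were picked by the test between the cell types, are no further support for it. Per exon length, as RPKM (counts per 1000 exon bases, scaled to the library total), the 5 receptors that passed made up 66.5% and 83.7% of the summed RPKM of the 9 in wild type clusters, and 34.9% and 80.8% in Sl/Sl clusters. In the endothelium libraries they made up 0.631% to 2.89%. In wild type clusters the order by mean RPKM was Flt3 at 18.3 ± 3.75 (SD, n = 2), Il7r at 16.2 ± 4.69, Csf2ra at 11.7 ± 1.80, Csf2rb at 9.92 ± 8.92 and Csf3r at 7.26 ± 1.53. Each of these 5 overlapped its neighbor in that order. Il6st at 2.90 ± 1.88, Il3ra at 1.90 ± 1.47 and Csf2rb2 at 1.69 ± 0.582 formed a lower range without overlap with Csf3r, and Epor was lowest at 0.218 ± 0.123. Csf2rb, at 3.61 RPKM in wild type clusters replicate 1, did reach into the range of Il6st. In wild type endothelium Il6st (8.46 ± 5.84 RPKM) and Csf2ra (7.65 ± 5.87 RPKM) led and overlapped, followed by Il3ra at 3.86 ± 0.148 and Epor at 3.36 ± 0.178 RPKM, and no other receptor had a mean over 0.378 RPKM.

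**Figure D2:**
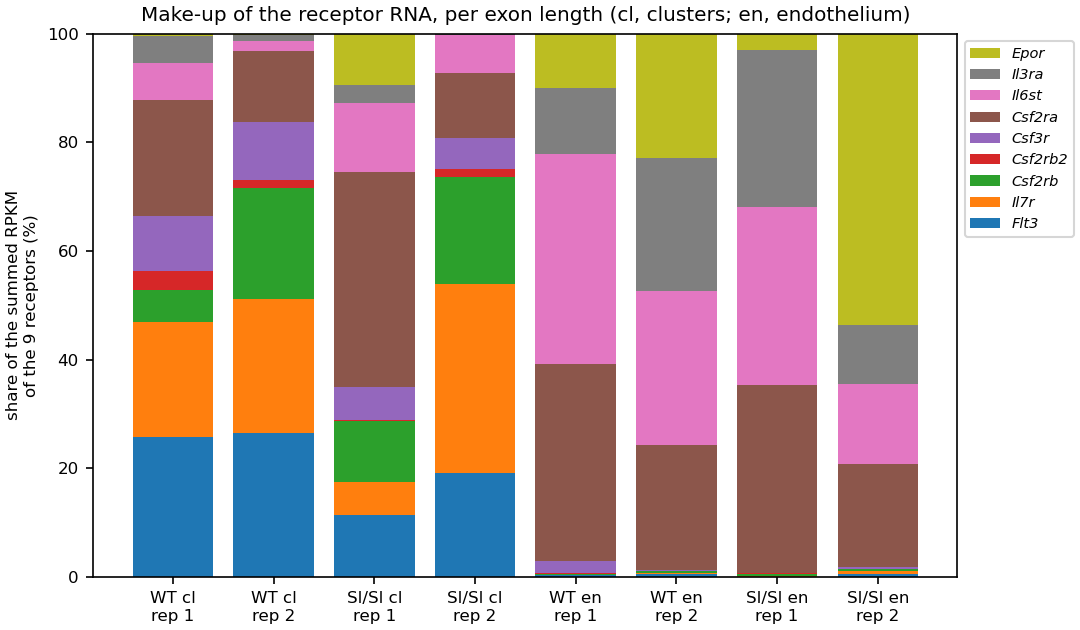
Share of the summed RPKM of the 9 receptors (vertical axis, percent) taken by each receptor in the 8 libraries, 1 stacked bar per library. Flt3, Il7r, Csf2rb, Csf2rb2 and Csf3r, the 5 genes picked by the test between the cell types, fill between 34.9% and 83.7% of the bar in clusters and at most 2.89% in endothelium by that choice, and Il6st, Csf2ra, Il3ra and Epor fill the rest.

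Flt3, the receptor of FLT3 ligand, lies on the minus strand of chromosome 5 (mm9, 148142317 to 148212065, 24 exons). It had 617 and 964 counts in wild type clusters, 178 and 538 in Sl/Sl clusters, 4 and 3 in endothelium of wild type embryos and 0 and 2 in that of Sl/Sl embryos. The lowest cluster library, with 178 counts, thus lay far above the highest endothelium library, with 4. Summed over libraries and scaled by library size, clusters held 212 times the endothelial amount, with an exact 95% interval of 111 to 464 that covers counting error only. The fitted log2 fold change was 7.72 ± 0.86 (SE, adjusted p = 0.000871). It was 7.64 ± 1.18 in wild type (adjusted p = 0.00918) and 7.80 ± 1.25 in Sl/Sl (adjusted p = 0.0186), comparisons that share no library but share 1 estimate of the spread. With the Sl/Sl libraries fitted alone the Sl/Sl call was lost (adjusted p = 0.136). Fitted folds of this size rest on a handful of endothelial counts and depend on the prior count of the fit, so they are no bound.

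The genes with the most similar pattern to Flt3 over the 8 libraries, by the root mean square difference of mean-centered log2 CPM, were Rab44 at 0.328, Ncf1 at 0.333 and Cybb at 0.335. Ncf1 and Cybb encode subunits of the phagocyte NADPH oxidase. Ncf1 had 968, 1472, 206 and 1092 counts in the cluster libraries in the order above, and 1 to 7 in endothelium. Like Flt3, it was lowest among cluster libraries in Sl/Sl clusters replicate 1.

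Kit itself, the gene whose protein the sort used, was much less cell type-restricted as RNA. It had 4392 and 3234 counts in wild type clusters, 2937 and 3214 in Sl/Sl clusters, and 538 to 1065 in the c-Kit- endothelium, a log2 fold change of 1.90 ± 0.21 (adjusted p = 0.000801). The RPKM of Flt3 was 0.199 and 0.422 times that of Kit in wild type clusters and 0.0859 and 0.237 times in Sl/Sl clusters. In every endothelium library it was at most 0.00567 times that of Kit.

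Il7r encodes the alpha chain of the IL-7 receptor and lies on chromosome 15 (mm9, 9435914 to 9459631, minus strand, 8 exons). Its counts were 444 and 786 in wild type clusters, 85 and 857 in Sl/Sl clusters, 1 and 1 in endothelium of wild type embryos and 1 and 2 in that of Sl/Sl embryos. The cluster to endothelium ratio was 361 (154 to 1112), an interval that overlaps that of Flt3, with a log2 fold change of 8.30 ± 0.99 (adjusted p = 0.00129). The call was made in wild type (8.96 ± 1.44, adjusted p = 0.0108) and in Sl/Sl (7.65 ± 1.36, adjusted p = 0.0306). In Sl/Sl it was lost without Sl/Sl clusters replicate 2 (5.38, adjusted p = 0.105), without Sl/Sl endothelium replicate 1 (7.09, adjusted p = 0.107) and with the Sl/Sl libraries fitted alone (adjusted p = 0.132).

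Il2rg, the common gamma chain with which Il7r signals, was abundant in both cell types. It had 1805 to 7469 counts in clusters and 3907 to 6807 in endothelium, with a log2 fold change of -0.62 ± 0.35 that did not pass the test (adjusted p = 0.293). The ratio of Il7r to Il2rg RPKM was 0.0166 to 0.124 in clusters and at most 0.000251 in endothelium. Il2rg did pass as lower in clusters without the count filter (-0.63, adjusted p = 0.0258) and without wild type clusters replicate 2 (-1.21, adjusted p = 0.00716), and the difference between the chains was not tested.

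Some lymphoid markers moved with Il7r and others did not. Rag2, a subunit of the recombinase that rearranges antigen receptor genes, had 174 and 1095 counts in wild type clusters, 6 and 148 in Sl/Sl clusters, and 0 or 1 in endothelium. Its partner Rag1 had 188 counts in wild type clusters replicate 2 and 0 to 4 in every other library. Sl/Sl clusters replicate 1 was the lowest cluster library for both Il7r and Rag2. The summed level of the 14 lymphoid markers was 164 to 365 CPM in clusters and 88.2 to 237 CPM in endothelium, with 7 or 8 of the genes detected in each cluster library and 6 in each endothelium library, and Dntt and Cd3e at 0 throughout. Rag1 and Rag2 were singled out after their values were seen. Vpreb1, Ebf1 and Lck went the other way in wild type. Summed over 2 libraries, they had 54, 152 and 1037 counts in clusters and 259, 399 and 2301 in endothelium. Of the 7 markers tested over both genotypes, 2 (Cd79b and Rag2) were higher in clusters and 0 lower, 28.6% beside 16.6% of all genes. Rag2, with 0 or 1 counts in each endothelium library, passed the count filter through clusters alone and could hardly come out lower. The median log2 fold change of the 7 was -1.30 in wild type and 1.61 in Sl/Sl.

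**Figure D3:**
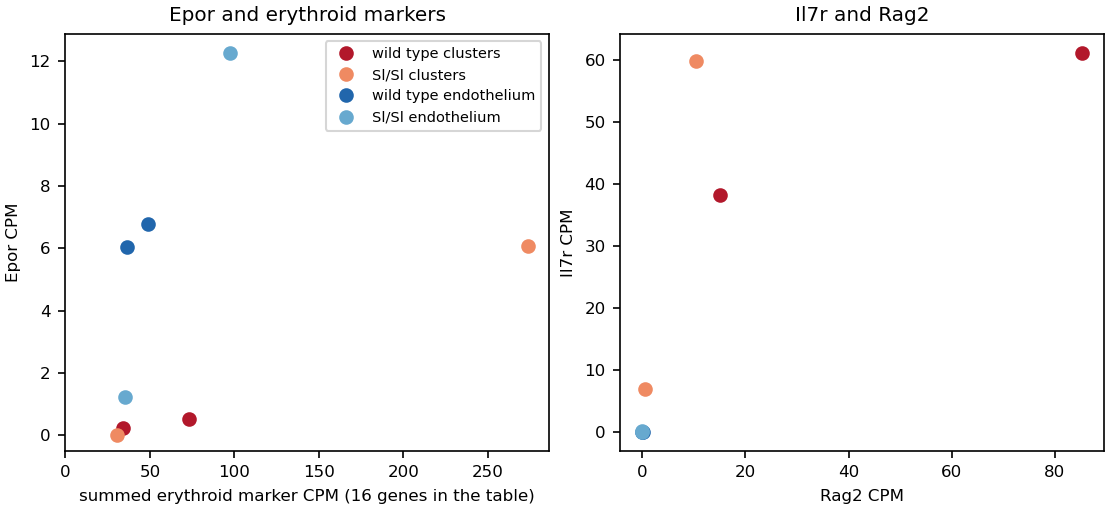
Left, Epor CPM against the summed CPM of 16 erythroid markers. Right, Il7r CPM against Rag2 CPM. Each of the 8 points per panel is a library, colored by group. Sl/Sl clusters replicate 1 is highest on the erythroid axis at 274 CPM and lowest among cluster libraries in Il7r at 6.98 CPM.

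Csf2rb, the beta chain shared by the IL-3, GM-CSF and IL-5 receptors, and Csf2rb2, a second mouse beta chain that serves IL-3 alone, lie side by side on chromosome 15 of mm9, at 78156420 to 78181431 (plus strand) and 78112938 to 78136151 (minus strand), with 14 exons each. Their exons were 91.4% identical over 4649 aligned bases, so short reads can be hard to assign. Of all 75-base windows in their exons, the read length used, 11% of those in Csf2rb and 11.1% of those in Csf2rb2 occur unchanged in the other gene. These windows stand for single reads and leave the mates of paired reads out of account. The longest identical run, 242 coding bases within 1 exon of each, is shown because read pairs wholly inside it cannot be told apart. It lies at chr15:78179007-78179248 on the plus strand in Csf2rb and chr15:78115060-78115301 on the minus strand in Csf2rb2, and reads in lower case from the NCBIM37 genome (the mm9 assembly):
Csf2rb and Csf2rb2 shared run: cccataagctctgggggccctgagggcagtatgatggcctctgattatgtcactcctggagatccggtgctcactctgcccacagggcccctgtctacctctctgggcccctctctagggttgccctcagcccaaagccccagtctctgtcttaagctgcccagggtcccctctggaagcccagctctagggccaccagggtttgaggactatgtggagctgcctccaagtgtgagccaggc

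Both beta chains were carried by clusters, at different levels. Csf2rb had 185 and 971 counts in wild type clusters, 232 and 719 in Sl/Sl clusters, 5 and 3 in endothelium of wild type embryos and 5 and 2 in that of Sl/Sl embryos. The cluster to endothelium ratio was 117 (70.6 to 209) and the log2 fold change 6.80 ± 0.84 (adjusted p = 0.00151), with calls in wild type (6.98 ± 1.19, adjusted p = 0.0139) and in Sl/Sl (6.61 ± 1.18, adjusted p = 0.0314). The Sl/Sl call was lost without Sl/Sl clusters replicate 2 (5.75, adjusted p = 0.101). Csf2rb2 had 107 and 76 counts in wild type clusters, 1 and 49 in Sl/Sl clusters, and 0 or 1 in each endothelium library. Its ratio was 96.8 (26.5 to 804) and its log2 fold change 6.06 ± 2.03 (adjusted p = 0.0938). This call stood near the threshold and was lost when any 1 of the 8 libraries was left out (adjusted p from 0.103 to 0.389) and with replicate number as a block (adjusted p = 0.160).

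In RPKM, Csf2rb exceeded Csf2rb2 by 1.72 and 12.7 times in wild type clusters and by 14.6 times in Sl/Sl clusters replicate 2. In Sl/Sl clusters replicate 1 Csf2rb2 had a single count beside 232 of Csf2rb. The 2 genes thus did not keep a fixed proportion across cluster libraries. The genes most like Csf2rb in pattern were the unnamed transcripts I830077J02Rik (root mean square difference 0.276), 5430427O19Rik (0.342) and Gm1966 (0.343).

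The alpha chains Csf2ra and Il3ra, which pair with Csf2rb, did not pass the test. Csf2ra, the GM-CSF alpha chain (chromosome 19, 61300305 to 61304321, minus strand), had 257 and 241 counts in wild type clusters, 316 and 169 in Sl/Sl clusters, 280 and 68 in endothelium of wild type embryos and 160 and 37 in that of Sl/Sl embryos. The cell types overlapped, and the log2 fold change of 0.76 ± 0.68 did not pass the test (95% interval -0.77 to 2.29, adjusted p = 0.533). Il3ra, the IL-3 alpha chain (chromosome 14, 15179009 to 15188004, plus strand), had 44 and 15 counts in wild type clusters, 20 and 3 in Sl/Sl clusters, 71 and 55 in endothelium of wild type embryos and 100 and 16 in that of Sl/Sl embryos. Its log2 fold change was -1.84 ± 1.31 (95% interval -4.79 to 1.10, adjusted p = 0.414), with overlap between the cell types.

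The ratio of beta to alpha chain therefore separated the cell types. Csf2rb RPKM was 0.279 and 1.56 times that of Csf2ra in wild type clusters, 0.285 and 1.65 times in Sl/Sl clusters, and 0.00693 to 0.0210 times in endothelium. Within clusters it was low in both libraries numbered 1 and high in both numbered 2, in each genotype. Il5ra, the IL-5 alpha chain, went in the direction of Csf2rb, with 67, 20, 12 and 0 counts in the cluster libraries in that order and 0 in all endothelium libraries, but it did not pass the test (adjusted p = 0.151).

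Csf3r, the G-CSF receptor (chromosome 4, 125701903 to 125722219, plus strand, 17 exons), had 269 and 424 counts in wild type clusters, 106 and 179 in Sl/Sl clusters, 38 and 1 in endothelium of wild type embryos and 0 and 1 in that of Sl/Sl embryos. The groups of clusters and endothelium did not overlap, although wild type endothelium replicate 1 stood apart with 38 counts. The cluster to endothelium ratio was 20.3 (14.8 to 28.6) and the log2 fold change 5.76 ± 1.28 (adjusted p = 0.0223). Within a genotype it did not pass, at 4.15 ± 1.60 in wild type (adjusted p = 0.196) and 7.37 ± 2.00 in Sl/Sl (adjusted p = 0.131). Without wild type endothelium replicate 1 it passed in both (wild type 7.97, adjusted p = 0.0864, and Sl/Sl 7.37, adjusted p = 0.0413), and without wild type endothelium replicate 2 it passed in Sl/Sl (7.38, adjusted p = 0.0421). Granulocyte markers moved the same way between the cell types (694 to 1202 against 13.4 to 41.8 CPM). Within clusters their sum was 694 and 733 CPM in wild type and 1202 and 1173 CPM in Sl/Sl. Csf3r counts, in contrast, were lower in both Sl/Sl cluster libraries. The part of granulocyte markers in the Csf3r values was not tested.

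Il6st (gp130), the signal chain shared by receptors for IL-6, IL-11, LIF and oncostatin M (chromosome 13, 113254278 to 113297068, plus strand), was present in every library. Counts were 248 and 108 in wild type clusters, 299 and 294 in Sl/Sl clusters, 881 and 248 in endothelium of wild type embryos and 446 and 84 in that of Sl/Sl embryos. The cell types overlapped, and the log2 fold change of -0.90 ± 0.60 did not pass the test (95% interval -2.25 to 0.46, adjusted p = 0.383). The most similar patterns were those of Zfp248 (root mean square difference 0.236), Kctd18 (0.333) and Gpr125 (0.364).

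The chains that partner Il6st were divided between the cell types. Lifr, the LIF receptor, had 85 to 540 counts in clusters and 1086 to 1803 in endothelium and was lower in clusters (log2 fold change -2.49 ± 0.37, adjusted p = 0.00358). Osmr, the oncostatin M receptor, had 3, 0, 89 and 0 counts in clusters and 251 to 591 in endothelium (-5.70 ± 1.41, adjusted p = 0.0339). Il6ra, the IL-6 alpha chain, went the other way, with 43 to 134 counts in clusters and 1, 0, 1 and 14 in endothelium (4.78 ± 1.63, adjusted p = 0.0993), a call that was lost when any 1 of the 8 libraries was left out (adjusted p from 0.122 to 0.288), with the block and without the count filter. The IL-11 alpha chain Il11ra1, added after its values were seen, had 407 to 1283 counts in clusters and 655 to 1228 in endothelium and did not pass the test (adjusted p = 0.599).

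RNA of the ligand IL-6 was itself found in clusters. Il6 had 59, 69, 86 and 7 counts in the cluster libraries and 0, 0, 1 and 0 in endothelium (log2 fold change 7.49 ± 2.13, adjusted p = 0.0613), a call lost in 7 of 8 leave-outs of 1 library (adjusted p up to 0.224), all but the one without Sl/Sl clusters replicate 2. Socs3, an inhibitor of gp130 signaling whose transcription STAT3 induces, was lower in clusters, with 0, 2, 7 and 2 counts against 99, 102, 187 and 4 in endothelium (-5.59 ± 1.68, adjusted p = 0.0663). That call was lost in 6 of 8 leave-outs, all except those without wild type endothelium replicate 1 and Sl/Sl endothelium replicate 2 (adjusted p up to 0.306), and with the block.

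**Figure D4:**
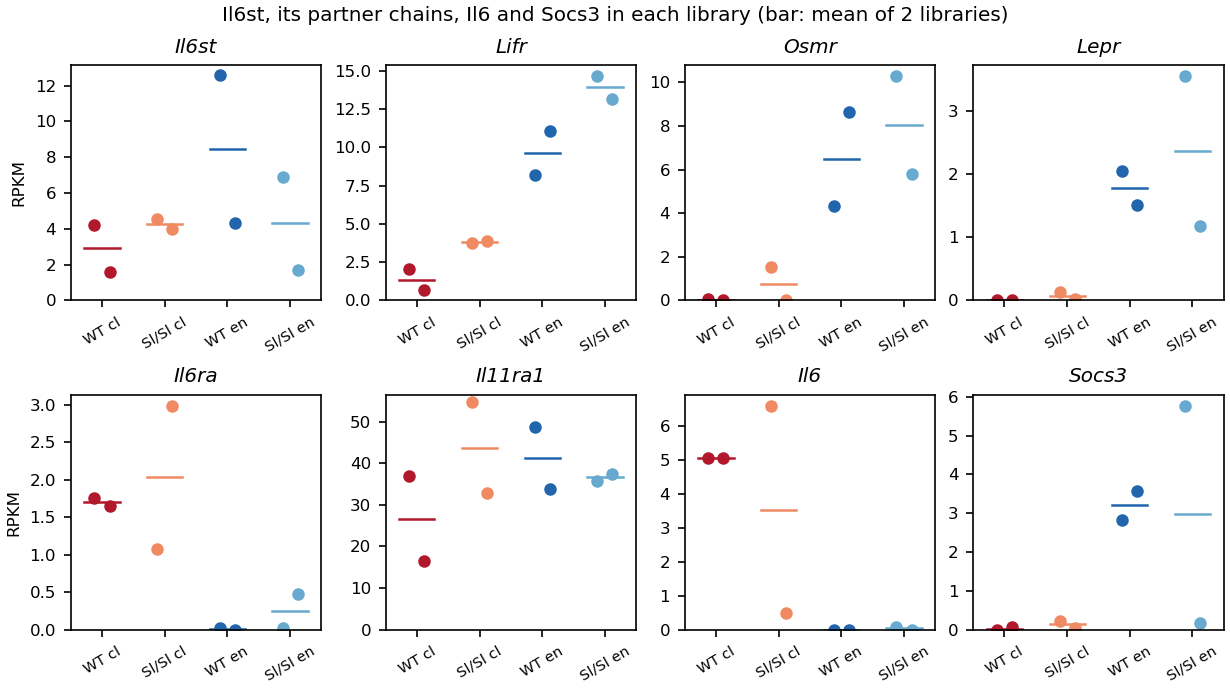
RPKM (vertical axes, linear and starting at 0) of Il6st, the receptor chains Lifr, Osmr, Lepr, Il6ra and Il11ra1, the ligand gene Il6 and the inhibitor gene Socs3 in each library, with 2 points per group and a bar at their mean. Lifr, Osmr and Lepr are higher in all endothelium libraries than in all cluster libraries, Il6ra is higher in all cluster libraries, and Il6st and Il11ra1 overlap. Lepr and Il11ra1 were chosen for display after their values were seen.

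Epor, the erythropoietin receptor (chromosome 9, 21763343 to 21768020, minus strand, 8 exons), varied widely between the libraries of each Sl/Sl group. It had 6 and 3 counts in wild type clusters, 74 and 0 in Sl/Sl clusters, 76 and 67 in endothelium of wild type embryos and 14 and 103 in that of Sl/Sl embryos. The highest values were in endothelium and in a single cluster library, and the cell types overlapped. The log2 fold change was -2.60 ± 1.66 over both genotypes (95% interval -6.34 to 1.13, adjusted p = 0.359) and -4.06 ± 2.50 in wild type (adjusted p = 0.406). The closest patterns to Epor were less close than those found for Flt3, Csf2rb and Il6st, namely Kcne3 (root mean square difference 0.856), Lypla2 (0.866) and Mansc1 (0.903).

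Erythroid markers moved with Epor in part. Their summed level over 16 genes was 72.9 and 34.0 CPM in wild type clusters, 274 and 30.4 CPM in Sl/Sl clusters, 36.3 and 49.1 CPM in endothelium of wild type embryos, and 35.0 and 97.4 CPM in that of Sl/Sl embryos. The libraries with the highest Epor in each Sl/Sl group were those with the highest erythroid sum, whereas wild type endothelium held 67 and 76 Epor counts at sums no higher than 49.1 CPM. Between 8 and 11 of the 16 markers had counts in a library. The alpha globin genes Hba-a1 and Hba-a2 and the beta globin genes Hbb-b1 and Hbb-b2 were at 0 in all 8. How reads that match several places were treated is not given, so a 0 here need not mean absent RNA. Among the 16 markers, Hbb-y had the highest mean in Sl/Sl clusters, at 116 ± 149 CPM (SD, n = 2), and in Sl/Sl endothelium, at 50.7 ± 34.3 CPM. Hbb-y thus made up most of the erythroid sum in both Sl/Sl groups, and the match of that sum with Epor rested mainly on this gene. The part of erythroid cells in these values was not tested.

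Promoter sequence was at hand for 8 of the 9 receptors, as the 250 bases before the RefSeq gene start (GRCm38.p6), and Csf2rb was not searched. Each was searched on both strands for letters typical of sites for 3 blood transcription factors: the motif of the erythroid factor family around Gata1 was taken as AGATAA, the Runx1 motif was taken as TGTGGT, and the motif of the myeloid factor PU.1 was taken as GAGGAA. These matches do not overlap one another in the sequences shown. Among 32851 RefSeq promoters, 9.99% held the first, 14% the second and 23.3% the third. Epor alone of the 8 held the GATA and the RUNX letters, and Csf2ra, Csf2rb2 and Csf3r held the PU.1 letters, while Flt3, Il3ra, Il6st and Il7r held none of the 3. Promoters of a pair are shown as examples of these matches, those of Epor (chr9:21963577-21963826) and Csf3r (chr4:126024409-126024658), each on its own strand with matches in capitals:
Epor: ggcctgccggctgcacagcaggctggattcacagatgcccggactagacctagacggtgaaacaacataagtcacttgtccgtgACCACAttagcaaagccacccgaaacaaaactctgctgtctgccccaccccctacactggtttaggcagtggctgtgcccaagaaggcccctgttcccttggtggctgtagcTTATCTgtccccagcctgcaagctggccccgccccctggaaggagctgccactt
Csf3r: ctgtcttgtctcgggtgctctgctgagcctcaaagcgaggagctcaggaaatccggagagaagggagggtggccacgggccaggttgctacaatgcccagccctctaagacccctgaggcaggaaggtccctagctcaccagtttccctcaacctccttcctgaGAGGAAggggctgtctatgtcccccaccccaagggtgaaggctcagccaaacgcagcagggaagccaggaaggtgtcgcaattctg

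In the Epor sequence the capitals are, in order, the RUNX and the GATA letters, both as their reverse complements, and in Csf3r they are the PU.1 letters on the strand shown. A match describes letters only and is not evidence that a factor binds.

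With Kitl absent, no receptor passed the test in clusters. The edgeR test called 0 of 9 receptors and 0% of 13908 genes in Sl/Sl against wild type clusters, where 587 genes had an unadjusted p under 0.05 and DESeq2 called 155 genes, 0 of them receptors. By rank of the libraries, 3 receptors (Flt3, Csf2rb2 and Csf3r) had both Sl/Sl values in clusters under both wild type values, as were 16.2% of genes tested, and 0 were higher in both, as were 16.4% of genes. Flt3 differed by -1.30 ± 0.87 on the log2 scale (95% interval -3.25 to 0.66), from 18.3 to 7.51 mean RPKM. Csf3r differed by -1.40 ± 1.43 (-4.63 to 1.82), from 7.26 to 2.74 mean RPKM, and Csf2rb2 by -2.10 ± 2.35 (-7.40 to 3.20). The adjusted p was 1 for each of the 9 receptors.

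For the remaining receptors the log2 difference was -0.40 ± 0.89 for Csf2rb, -0.12 ± 0.95 for Csf2ra, -1.41 ± 1.83 for Il3ra, 0.60 ± 0.85 for Il6st, -0.57 ± 0.96 for Il7r and 2.98 ± 2.39 for Epor. Leaving out Sl/Sl clusters replicate 1 turned the sign for Csf2rb, Il7r and Epor (to 0.14, 0.27 and -5.16). That library had the lowest counts of Flt3, Il7r, Csf3r and Csf2rb2 among the cluster libraries, the highest endothelial marker sum of them (4430 against 627 to 1844 CPM) and the highest erythroid sum. Its hematopoietic marker sum over 19 genes was 2269 CPM, against 2534 to 3787 CPM in the other cluster libraries. Its macrophage sum (1270 CPM against 753 to 954) and granulocyte sum (1202 CPM against 694 to 1173) were the highest of the cluster libraries. So were its counts of Csf2ra, Il6st and Epor. Sl/Sl clusters replicate 2 in turn had the highest sum over 15 mesenchymal markers, 6438 CPM against 676 to 2577 CPM in the other 7 libraries. The part of these other cell types in the receptor values was not tested.

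**Figure D5:**
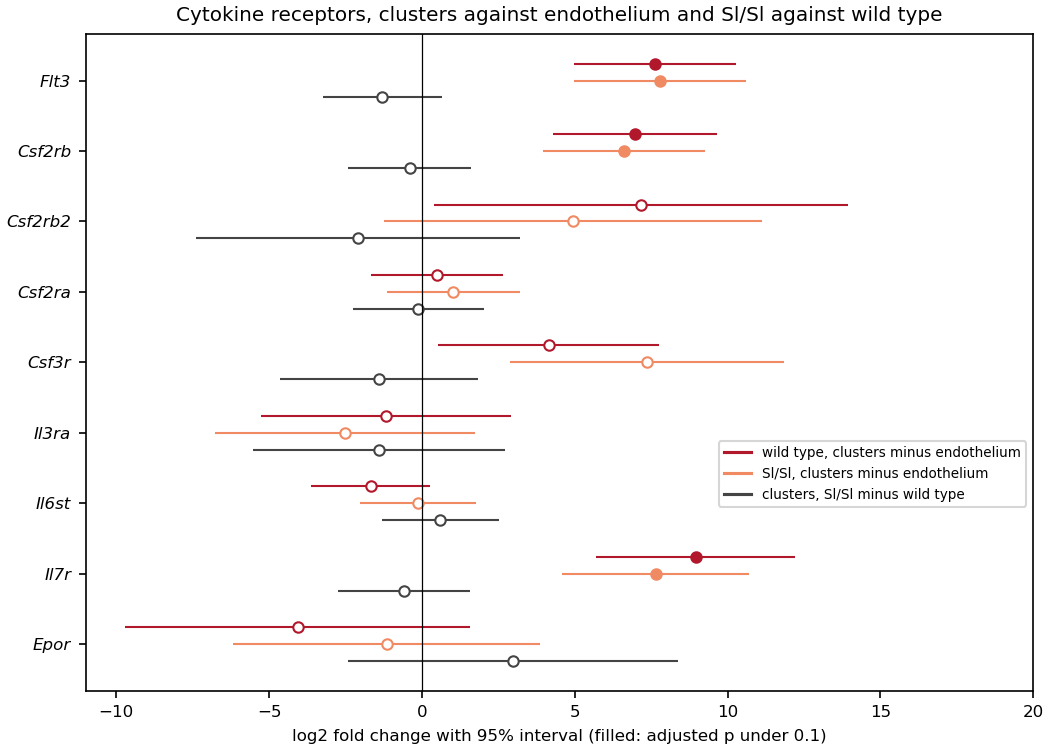
Fitted log2 fold change (horizontal axis) with its 95% interval for the 9 receptors in 3 comparisons. Filled points have an adjusted p under 0.1. Flt3, Csf2rb and Il7r are filled for clusters minus endothelium in both genotypes, and no point is filled for Sl/Sl minus wild type clusters, where every interval includes 0.

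In endothelium the receptors also gave no call. In Sl/Sl against wild type endothelium 0 of 9 receptors and 0% of 13908 genes passed in edgeR, where 580 genes had an unadjusted p under 0.05 and DESeq2 called 119 genes, 0 of them receptors. The lowest unadjusted p among receptors was that of Csf3r (-4.62 ± 1.86, adjusted p = 1), a value that rested on the 38 counts of wild type endothelium replicate 1 and became -0.80 without that library. Il6st differed by -0.95 ± 0.85 and Epor by 0.07 ± 2.20, both with adjusted p = 1. The difference between the genotype effects in the 2 cell types, tested as an interaction, likewise called 0 of 9 receptors and 0% of genes, where 736 genes had an unadjusted p under 0.05 and DESeq2 called 121 genes, 0 of them receptors. Within wild type the cell types differed in 3 receptors (Flt3, Csf2rb and Il7r) beside 8.24% of all genes, and within Sl/Sl in the same 3 beside 2.83% of all genes.

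Other cytokine receptors were divided in direction. Of 35 listed, 30 were tested, and 9 were higher and 5 lower in clusters. That was 46.7% of those tested beside 16.6% of all genes, and their median log2 fold change was 0.95 against 0.067 over all genes. Csf1r, Il17ra, Il21r, Il10ra and Il12rb2 had at most 7 counts summed over an endothelium group. These genes and Il6ra passed the count filter through clusters alone. Lepr, with at most 12 counts summed over a cluster group, and Osmr passed it through endothelium alone. Such genes could hardly come out the other way. The list was also chosen with earlier results known, so its share is no test of the list. Csf1r, the M-CSF receptor of macrophages, had 263 to 529 counts in clusters and 0 to 5 in endothelium (log2 fold change 7.10 ± 0.94, adjusted p = 0.00215). Clusters thus held RNA for all 3 class III tyrosine kinase receptors of blood examined here, Kit, Flt3 and Csf1r.

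Among interleukin receptors, Il17ra, the shared chain for IL-17 cytokines, had 135 to 600 counts in clusters and 0 to 5 in endothelium (7.59 ± 1.01, adjusted p = 0.00219). Il21r had 44 to 211 counts in clusters and 0 to 2 in endothelium (7.04 ± 1.32, adjusted p = 0.0111). For both, Sl/Sl clusters replicate 1 was again the lowest cluster library. Further calls, outside the rule for naming genes and listed after their values were seen, were Il10ra, Il12rb2 and Il4ra, higher in clusters (log2 fold change 7.06, 7.12 and 3.46), and Lepr, Il13ra1 and Ghr, lower (-6.49, -4.69 and -1.29). Il4ra lost its call without wild type clusters replicate 1 or Sl/Sl clusters replicate 2 (adjusted p up to 0.114), and Ghr without wild type clusters replicate 2, Sl/Sl clusters replicate 1, wild type endothelium replicate 1 or Sl/Sl endothelium replicate 1 (adjusted p up to 0.168).

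Ligand RNA was sparse. Of 18 cytokine ligand genes, 8 (Csf2, Csf3, Il5, Il11, Il34, Lif, Osm and Epo) had 0 counts in all 8 libraries, 8 were tested, and Il6 was the 1 that passed, 12.5% of those tested beside 16.6% of all genes. A count of 0 allows up to 3 counts in a library. Kitl had 1250 and 923 counts in wild type endothelium against 110 and 0 in wild type clusters. The test over both genotypes weights Sl/Sl equally, where the gene is deleted, and so does not measure the difference in wild type alone. In that test, Kitl had a log2 fold change of -2.84 ± 1.22 (adjusted p = 0.177). It passed as lower in clusters without the count filter (adjusted p = 0.00157), in DESeq2 (adjusted p = 0.0339), and without wild type clusters replicate 1 (-7.23, adjusted p = 0.000856) or replicate 2 (-2.30). The GM-CSF, G-CSF and erythropoietin receptors were thus found without counts of their ligand genes in either sorted population.

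Genes that act inside the cell were also followed. Of 11 JAK and STAT genes, 0 passed, beside 16.6% of all genes, with log2 fold changes from -0.21 to 2.28, a median of 0.43 and a smallest adjusted p of 0.114. Jak2, the kinase used by Epor and Csf2rb, had 422 to 945 counts in clusters and 149 to 643 in endothelium (0.35 ± 0.45, adjusted p = 0.688), and Stat5a, a main target of these receptors, had 425 to 613 and 114 to 241 (1.00 ± 0.46, adjusted p = 0.204). Of 20 adaptors and inhibitors, 3 were higher (Ptpn6, Inpp5d and Grb2) and 1 lower (Socs3) in clusters, 20% of the list beside 16.6% of all genes, and the median of the list was 0.018 on the log2 scale. Ptpn6, the blood cell phosphatase SHP-1 that switches off receptor signaling, had 2479 to 4234 counts in clusters and 24 to 104 in endothelium (5.87 ± 0.55, adjusted p = 0.000392). Inpp5d (SHIP1) and the adaptor Grb2 passed by small margins (1.25 ± 0.41, adjusted p = 0.0874, and 1.03 ± 0.34, adjusted p = 0.0899), and each lost its call in 7 of 8 leave-outs, all but the one without wild type endothelium replicate 2 for Inpp5d and Sl/Sl endothelium replicate 1 for Grb2 (adjusted p up to 0.241 and 0.255). Inpp5d also lost it with the block.

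Of 14 genes known as STAT targets, 1 was higher and 1 lower in clusters, 14.3% of the list beside 16.6% of all genes, and the median of the list was 0.52 on the log2 scale. Serpina3g had 605 to 2324 counts in clusters and 34 to 386 in endothelium (2.79 ± 0.73, adjusted p = 0.0419), a call lost without Sl/Sl clusters replicate 1 (adjusted p = 0.114). Id1, an inhibitor of helix-loop-helix factors that BMP signals also induce, had 361 to 1175 counts in clusters and 2025 to 4317 in endothelium (-2.40 ± 0.32, adjusted p = 0.00219). The remaining 12 did not pass.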

How the data were processed

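RNA-Seq libraries were made with SMARTSEQ2 from samples of 100 sorted cells, and 75 bp paired-end reads were sequenced. Reads carry no molecular identifiers, so intervals on counts hold for counting error alone. Alignment to mm9 was with STAR v2.4.2a. The authors merged lanes and deposited raw counts per gene from featureCounts (Subread v1.4.5), with exon coordinates and lengths. The annotation, the strand setting and the treatment of reads that match several places are not given in the sources used here. The only members with exons overlapping other listed genes were Csf2rb and Csf2rb2 (62 bases each, 2 microRNA genes).

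The 8 samples were assigned to 4 groups from their labels. Samples were pools of 1 to 4 embryos from 2 sorting experiments, and which experiment each came from is not stated. Counts were tested with edgeR 4.0.16 in R 4.3.3 (TMM scaling, filterByExpr, quasi-likelihood test on all 8 libraries, Benjamini-Hochberg threshold 0.1). Standard errors were taken as the log2 fold change divided by the root of F. Libraries held 8933236 to 13428214 counts, replicates correlated with a Spearman coefficient of 0.885 to 0.899 across genes, and the common dispersion was 0.667. With 2 libraries against 2, an exact permutation test cannot go below p = 0.333. CPM used TMM-scaled totals and RPKM plain totals. Cluster to endothelium ratios used summed counts and exact binomial intervals. Scripts were tested on simulated data. Alternatives were RLE factors, no count filter, DESeq2 1.42.0, a replicate block, edgeR on the compared libraries only, a threshold of 0.05, TMM-scaled RPKM and leaving out each library. The same settings for the pathway genes were added after the data were seen.

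Genes named were the 9 receptors, up to 6 called genes per pathway list, set partners of the receptors, and the 3 genes most like Flt3, Csf2rb, Il6st and Epor. The members and lists were chosen with earlier results of these data known. A gene that the rule names is not reported here. Of the marker genes, 2 were not found in the table. A spreadsheet had turned 27 gene names into dates, and these genes were not named.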

Additional observations from a re-analysis of the deposited data

How the results depend on the processing

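With RLE factors every receptor kept its direction and its side of the threshold in all 6 comparisons. Without the count filter, 1990 genes were called between the cell types in wild type, 1266 in Sl/Sl, 253 between genotypes in clusters, 65 in endothelium and 179 for the interaction. DESeq2 called 2409, 1418, 155, 119 and 121 genes in the same order, with 5 receptors in wild type. Csf3r passed within each genotype under both settings. On the compared libraries only, 211 genes and 1 receptor (Csf2rb) were called in Sl/Sl and 2 genes in endothelium between genotypes. At an adjusted p under 0.05, 1488 genes were called over both genotypes, 657 in wild type and 222 in Sl/Sl. The mean RPKM of Il3ra in wild type endothelium was 4.02 with TMM-scaled totals. Why these values moved was not tested.

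Labels do not say that replicate numbers pair the samples, and the correlations of same-numbered deviations ran from -0.111 to 0.157. With the replicate block, 8 genes were called between genotypes in clusters, Csf2rb2 lost its call over both genotypes (adjusted p = 0.160), and non-significant differences turned sign for Il6st in Sl/Sl (to 0.22) and Csf2rb in endothelium (to 0.0065). No other receptor call changed with the block.

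Leaving out 1 library at a time, genes called ran from 1563 to 2087 over both genotypes, 592 to 1329 in wild type, 182 to 633 in Sl/Sl, 6 to 76 in clusters between genotypes, 0 to 1 in endothelium and 0 to 27 for the interaction, and receptors called were 4 over both genotypes, 3 to 4 in wild type and 1 to 4 in Sl/Sl. A group left with 1 library was assumed to vary like the others. In Sl/Sl against wild type clusters, the log2 difference changed sign for Csf2ra from -0.79 to 0.34, Csf2rb from -1.26 to 1.11, Il7r from -2.83 to 0.27 and Epor from -5.16 to 3.98. For the interaction, the log2 difference changed sign for Flt3 from -0.93 to 3.68, Csf2rb from -1.23 to 1.15, Csf2ra from -0.54 to 1.60, Epor from -5.23 to 5.40, Csf3r from -0.60 to 5.87, Csf2rb2 from -6.47 to 0.18 and Il3ra from -3.43 to 0.13. In Sl/Sl clusters against endothelium, the log2 difference changed sign for Il6st from -0.77 to 1.19 and Epor from -9.29 to 1.34. In Sl/Sl against wild type endothelium, the log2 difference changed sign for Csf2rb from -0.54 to 0.30, Csf2ra from -1.72 to 0.43, Epor from -2.38 to 0.94, Csf2rb2 from -2.28 to 2.41, Il3ra from -1.54 to 0.64 and Il7r from -0.033 to 1.32. In wild type clusters against endothelium, the log2 difference changed sign for Csf2ra from -0.12 to 1.57. None of these was past the threshold. With 2 libraries a group and a common dispersion of 0.667, the 95% intervals of the genotype differences were wide, from -3.25 to 0.66 on the log2 scale for Flt3 in clusters.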

Other observations

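Flt3l, which encodes the FLT3 ligand, was looked at after its values were seen. It had 48 and 93 counts in wild type clusters, 18 and 83 in Sl/Sl clusters, 1 and 1 in endothelium of wild type embryos and 64 and 49 in that of Sl/Sl embryos. Both Sl/Sl endothelium libraries lay above both wild type ones, by 5.83 ± 2.01 on the log2 scale, but the difference did not pass the edgeR test over all genes (adjusted p = 1), nor did the interaction between cell type and genotype (-6.47 ± 2.50, adjusted p = 0.902).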
